A study of Mus musculus with 16 samples.

Results

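The genes described here encode the IL-13 ligand, the 2 chains of its signalling receptor, the 3 Janus kinases and 2 transcription factors that act behind that receptor, and 2 of the brakes on the pathway. The members are Il13, Il13ra1, Il4ra, Jak1, Jak2, Tyk2, Stat3, Stat6, Socs1 and Socs3. They were taken by gene name from the deposited expression table, which gave 10 of its 23440 genes. All animals were male C57Bl6/J mice aged 20 weeks, and the tissue was the gastrocnemius, a calf muscle of mostly fast fibres. The 4 groups of 4 mice were trained Il13-/- (KO), untrained Il13-/- (KO), trained wild type (WT) and untrained wild type (WT). Training was daily treadmill running over 5 weeks, and the design addresses whether the endurance training response of muscle depends on Il13. The labels name no Cre or promoter for the Il13-/- mice, and which part of the gene was removed is not given in the sources used here. Each library came from a mouse with its own identifier, so the p-values measure the spread between mice. The identifiers of WT and KO mice form separate runs, and the running numbers in the column headers go group by group. What these numbers stand for is not given. A genotype difference cannot be told apart from anything that follows them.

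IL-13 is a type 2 cytokine made mainly by T helper 2 cells, type 2 innate lymphoid cells and mast cells. It binds IL-13Rα1, which pairs with IL-4Rα, and the same pair also serves IL-4 on cells outside the blood lineage. IL-13Rα1 brings JAK2 or TYK2 and IL-4Rα brings JAK1, the kinases phosphorylate the receptor and STAT6, and in some cells STAT3, and the STATs then move to the nucleus. The activity of JAKs and STATs is set by phosphorylation, which transcript levels do not measure. SOCS1 and SOCS3 are induced by STATs in many cell types and shut the kinases down.

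The unit is RPKM, in which reads are divided by gene length and by library depth, so levels can be set side by side between genes of different length. Solving the steps between low values gave whole reads behind the table, with library totals of 16307025 to 20074677 reads and a median of 17780533. A gene was tested if it reached 1 RPKM in at least 4 of 16 libraries, which 10171 genes did. Among the 10 members, 7 were tested (Il4ra, Jak1, Jak2, Tyk2, Stat3, Stat6 and Socs3) and 3 were below the limit (Il13, Il13ra1 and Socs1). The libraries carried the markers of their labelled tissue, since the summed level of 6 muscle fibre markers ran from 59030.7 to 78057.2 RPKM. T cell markers summed to 0.0194 to 0.205 RPKM, markers of type 2 lymphoid cells to 0.126 to 0.406 RPKM, and mast cell markers to 4.67 to 10.9 RPKM. The tissue is bulk muscle, so fewer cells of a type and less RNA per cell cannot be told apart in any value below.

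In order of mean level over the 16 libraries, Jak1 came first at 33.8 RPKM, above 92.9% of the genes detected anywhere. Jak2 and Stat3 followed at 11.9 RPKM each, and neither stood above the other, since Jak2 was the higher in 8 of 16 libraries. Stat6 averaged 6.87 RPKM, Tyk2 2.38 RPKM and Il4ra 1.92 RPKM. The ranges of Tyk2 and Il4ra overlapped, although Tyk2 was the higher in 15 of 16 libraries. Socs3 averaged 0.975 RPKM and Il13ra1 0.818 RPKM, with overlapping ranges. Socs1 averaged 0.245 RPKM and Il13 came last at 0.0141 RPKM. Gaps without overlap lay between Jak1 and Jak2, between Stat3 and Stat6 and between Stat6 and Tyk2, where the ratios of the mean levels were 2.84, 1.73 and 2.89.

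**Figure D1:**
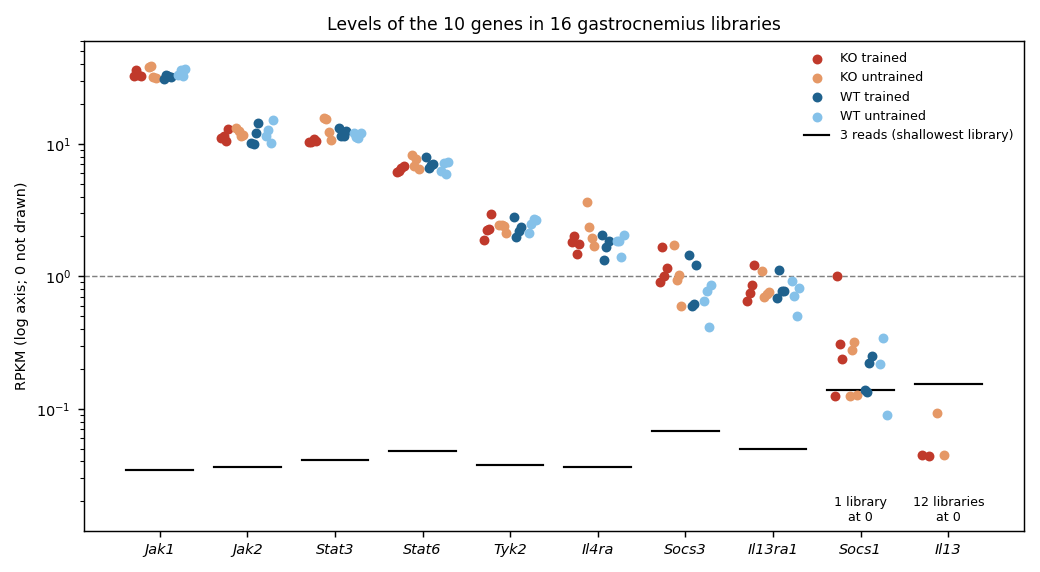
Levels of the 10 genes in RPKM (log axis) in 16 libraries, as points coloured by group, with a black line at the RPKM that 3 reads are worth in the shallowest library and a dashed line at 1 RPKM. Jak1 stands highest, Socs1 straddles the line of 3 reads and every Il13 value above 0 lies under it.

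The promoters of the 2 SOCS brakes and of Stat3 are shown because SOCS genes and Stat3 itself are known STAT targets. The sequences are the 250 bases before the transcription start from RefSeq (build GRCm38.p6, the reference version of mm10), all on the minus strand and written 5′ to 3′. They lie at chr11:117969367-117969616 for Socs3, chr16:10785537-10785786 for Socs1 and chr11:100939541-100939790 for Stat3. Capitals mark a match to the STAT motif TTCNNNGAA.
Socs3: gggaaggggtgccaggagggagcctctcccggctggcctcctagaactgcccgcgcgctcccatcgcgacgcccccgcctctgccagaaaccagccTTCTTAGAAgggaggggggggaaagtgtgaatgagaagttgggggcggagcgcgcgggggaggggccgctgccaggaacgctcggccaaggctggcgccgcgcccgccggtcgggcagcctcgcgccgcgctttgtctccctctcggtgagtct
Socs1: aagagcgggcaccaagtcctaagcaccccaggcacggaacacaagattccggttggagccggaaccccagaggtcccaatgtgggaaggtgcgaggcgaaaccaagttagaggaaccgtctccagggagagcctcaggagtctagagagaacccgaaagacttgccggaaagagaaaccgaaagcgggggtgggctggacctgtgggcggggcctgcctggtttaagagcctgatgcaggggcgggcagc
Stat3: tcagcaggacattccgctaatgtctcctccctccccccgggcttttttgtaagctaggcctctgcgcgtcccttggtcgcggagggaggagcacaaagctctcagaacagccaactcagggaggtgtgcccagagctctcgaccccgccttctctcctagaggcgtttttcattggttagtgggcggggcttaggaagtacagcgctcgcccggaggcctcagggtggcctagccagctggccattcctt
The motifs searched were TTCNNNGAA, with the 3-base gap that most STATs bind, and the same TTC and GAA ends around NNNN, the 4-base gap that STAT6 prefers. Both read the same on either strand. Socs3 held 1 match, TTCTTAGAA, at positions -154 to -146 from the start, and the windows of the other 9 members held none. Over 16374 genes of the table with a window, 6.83% of the stretches of 250 bases held TTCNNNGAA and 5.43% held the form with the 4-base gap. A match is a string of letters and was not tied to binding here.

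Il13, the ligand and the deleted gene (chr11:53631323-53634702 in mm10, minus strand), was at the detection floor in all 16 libraries. The trained KO libraries held 0, 1, 0 and 1 reads and the untrained KO libraries 2, 1, 0 and 0 reads, against 0 reads in each of the 4 trained and the 4 untrained WT libraries. The limit set by a count of 0 is 3 reads, or 0.124 to 0.153 RPKM for this gene, and the highest value was 0.0921 RPKM. Wild-type muscle therefore gives no level against which a loss could be read, and Il13 checks the genotype labels in neither direction. The groups are named by their labels throughout, and no fold is given for this gene.

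Il13ra1, the chain that binds IL-13 first (chrX:36112139-36171261, plus strand), was low but well above the floor, with 31 to 84 reads a library. Levels were 0.654, 0.746, 0.856 and 1.22 RPKM in trained KO muscle and 1.101, 0.697, 0.741 and 0.765 RPKM in untrained KO muscle. In WT muscle they were 0.682, 1.12, 0.771 and 0.776 RPKM after training and 0.925, 0.715, 0.502 and 0.816 RPKM without it. The groups overlapped fully, with 1 library at or above 1 RPKM in each group but untrained WT. Mean differences in log2(RPKM + 0.1) were 0.05 for training in KO (exact permutation p = 0.771) and 0.17 for training in WT (p = 0.486). Between genotypes they were 0.03 in trained mice (exact p = 0.800) and 0.15 in untrained mice (p = 0.514). Single libraries moved these values, since training in WT was 0.03 without trained WT library 2 and 0.02 without untrained WT library 3. The difference in untrained mice was 0.02 without KO library 1 and -0.0014 without WT library 3. These exact tests were two-sided, and 0.0286 is the smallest p that 4 against 4 libraries allow.

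Il4ra, the chain shared by the IL-4 and IL-13 receptors (chr7:125552282-125579474, plus strand), was detected at 1.82, 2.01, 1.48 and 1.74 RPKM in trained KO muscle. Untrained KO muscle had 3.63, 2.37, 1.94 and 1.69 RPKM. In WT muscle the levels were 2.03, 1.32, 1.67 and 1.86 RPKM after training and 1.83, 1.83, 1.39 and 2.06 RPKM without it. Library 1 of the untrained KO group was the highest of all 16, library 2 of that group the next, and the other 14 lay between 1.32 and 2.06 RPKM. Group means were 1.76 ± 0.218, 2.41 ± 0.862, 1.72 ± 0.306 and 1.78 ± 0.278 RPKM for trained KO, untrained KO, trained WT and untrained WT (SD, n = 4 each).

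The training difference of Il4ra in KO was -0.38 on the log2(RPKM + 0.1) scale (95% interval -0.78 to 0.03, limma adjusted p = 0.393). In WT it was -0.05 (-0.45 to 0.36, adjusted p = 0.947), and the difference of the 2 responses was -0.33 (-0.90 to 0.24, adjusted p = 0.754). Between untrained KO and WT it was 0.37 (-0.03 to 0.78, adjusted p = 0.780), and between trained KO and WT 0.04 (-0.37 to 0.44, adjusted p = 0.940). Without library 1 of untrained KO the training difference in KO was -0.17, the genotype difference in untrained mice 0.16 and the difference of the responses -0.12. That library also had the highest summed markers of the 16 for macrophages (36.7 RPKM), mast cells (10.9 RPKM) and eosinophils and neutrophils (10.5 RPKM), against 15.998 to 34.3, 4.67 to 10.7 and 0.245 to 6.76 RPKM in the other 15. Epx, which defines eosinophils, was at 0 in every library, and the part of these cells in the Il4ra level was not tested.

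The mean level of Il4ra was 2.42 ± 0.618 times that of Il13ra1 within a library (SD, n = 16). By group this ratio was 2.16 ± 0.679 in trained KO, 2.88 ± 0.562 in untrained KO, 2.18 ± 0.753 in trained WT and 2.46 ± 0.338 in untrained WT muscle. In 16 of 16 libraries the ratio was above 1, with a lowest value of 1.17.

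**Figure D2:**
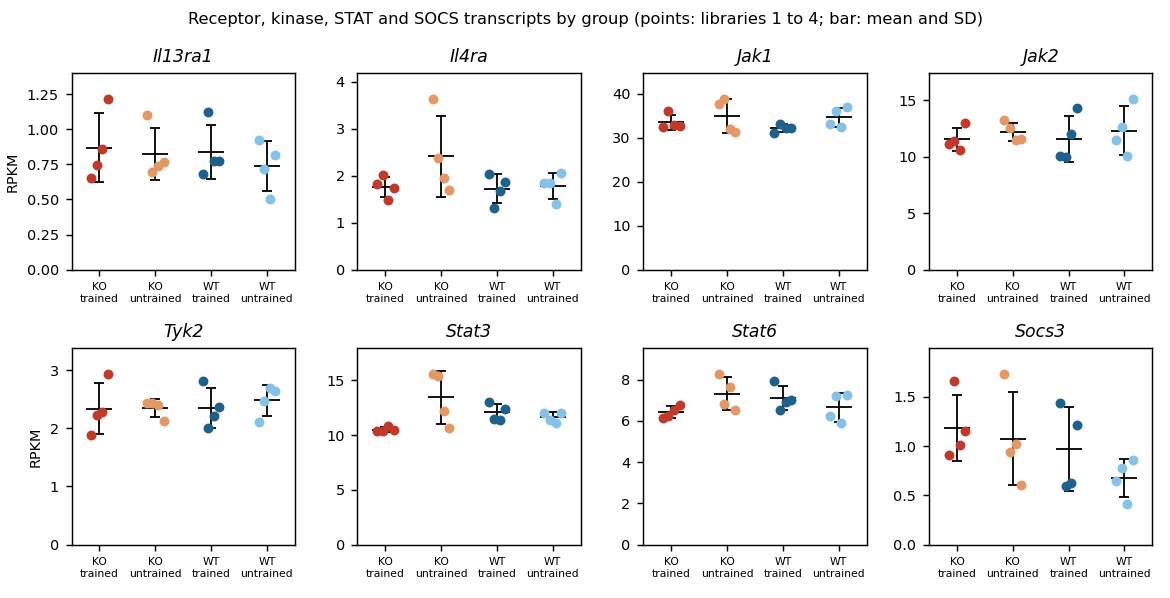
Levels in RPKM of the 8 receptor, kinase, STAT and SOCS genes above the floor in every library, by group, with a point per library, a bar at the mean and whiskers of 1 SD (n = 4). Between trained and untrained mice of a genotype and between KO and WT of a training state, the groups overlap in every panel except for Stat3, where the 4 trained KO libraries lie below the 4 trained WT libraries.

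Jak1, the kinase bound to IL-4Rα and to many other cytokine receptors (chr4:101151974-101265282, minus strand), was the highest member and the one with the smallest spread, a coefficient of variation of 7.28% over the 16 libraries. Levels were 32.5, 36.1, 32.8 and 32.7 RPKM in trained KO and 37.7, 38.9, 32.01 and 31.2 RPKM in untrained KO muscle. Trained WT muscle had 31.003, 33.2, 32.3 and 32.1 RPKM and untrained WT muscle 33.2, 36.1, 32.3 and 36.9 RPKM. All groups overlapped. The training difference was -0.05 in KO (-0.21 to 0.10, adjusted p = 0.750) and -0.10 in WT (-0.26 to 0.05, adjusted p = 0.620). The interval of the training response in KO thus reached from 0.867 to 1.07 of the untrained level. KO stood against WT at 0.06 in trained mice (-0.09 to 0.21) and 0.01 in untrained mice (-0.14 to 0.16).

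Jak2, a kinase of IL-13Rα1 and of the growth hormone and erythropoietin receptors (chr19:29251828-29313080, plus strand), ran from 9.97 to 15.1 RPKM. Trained KO muscle had 11.1, 11.4, 10.6 and 13.0 RPKM and untrained KO muscle 13.2, 12.5, 11.5 and 11.6 RPKM. In trained WT muscle the levels were 10.1, 9.97, 12.1 and 14.3 RPKM, and in untrained WT muscle 11.5, 12.6, 10.1 and 15.1 RPKM. The widest groups were the WT ones, which held both ends of the range. Its differences were -0.08 for training in KO (-0.34 to 0.18), -0.09 for training in WT (-0.35 to 0.17) and 0.01 for the difference of the responses (-0.36 to 0.37), with adjusted p of 0.780, 0.832 and 0.994.

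Tyk2, the other kinase of IL-13Rα1 and one that also serves interferon receptors (chr9:21104068-21131275, minus strand), was far lower than Jak1. Jak1 stood at 14.4 ± 1.85 times the Tyk2 level and at 2.87 ± 0.30 times the Jak2 level within a library (SD, n = 16). Tyk2 levels were 1.89, 2.23, 2.28 and 2.94 RPKM in trained KO and 2.43, 2.44, 2.40 and 2.12 RPKM in untrained KO muscle. They were 2.81, 2.00, 2.21 and 2.37 RPKM in trained WT and 2.11, 2.47, 2.70 and 2.64 RPKM in untrained WT muscle. Trained KO held both the lowest and the highest library of the 16. The training difference was -0.02 in KO (-0.29 to 0.25, adjusted p = 0.950) and -0.08 in WT (-0.35 to 0.19, adjusted p = 0.855), and no other comparison of Tyk2 was larger in size. Leaving out 1 library at a time, every difference of the 3 kinases lay between -0.19 and 0.15 on the log2 scale, and none was called.

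Stat3, the factor downstream of IL-6 family cytokines and in some cells of IL-13 (chr11:100886810-100939511, minus strand), had the smallest p of the tested members. Levels were 10.3, 10.4, 10.8 and 10.5 RPKM in trained KO muscle, against 15.6, 15.4, 12.2 and 10.6 RPKM in untrained KO muscle. In trained WT muscle they were 13.1, 11.4, 11.4 and 12.4 RPKM, and in untrained WT muscle 12.0, 11.3, 11.1 and 12.1 RPKM. The trained KO libraries were tight and low, the untrained KO libraries wide, and the 2 highest libraries of the 16 were untrained KO libraries 1 and 2. Group means were 10.5 ± 0.205 in trained KO, 13.4 ± 2.45 in untrained KO, 12.1 ± 0.807 in trained WT and 11.6 ± 0.475 RPKM in untrained WT (SD, n = 4 each).

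With training in KO, the log2 difference of Stat3 was -0.33 (SE 0.10, 95% interval -0.54 to -0.13), or 0.794 of the untrained level. Its limma p was 0.00332 before and 0.203 after Benjamini-Hochberg adjustment over all tested genes, so it did not pass. In WT the training difference was 0.05 (-0.15 to 0.26, adjusted p = 0.874). The response in KO minus that in WT was -0.39 (SE 0.14, -0.68 to -0.10). Its limma p was 0.0122 before and 0.529 after the same adjustment. Leaving out 1 library at a time, the training difference in KO ran from -0.44 without library 4 of untrained KO, with adjusted p = 0.0996, to -0.26 without library 1, and the difference of responses from -0.49 to -0.31.

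In trained mice every KO library (10.3 to 10.8 RPKM) lay below every WT library (11.4 to 13.1 RPKM) for Stat3. This was the only separation of groups of 4 among the 7 tested members in any of the 4 pairwise comparisons. Over all tested genes, 8.48% separated in this comparison and 5.86% did so with KO lower, so 1 of 7 members is not far from that background. In the other comparisons 0 of 7 members separated, against 9.43% of tested genes for training in KO (5.43% with trained lower), 6.37% for training in WT (2.62% with trained lower) and 3.95% for KO against WT in untrained mice (2.37% with KO lower). The Stat3 difference between trained KO and WT was -0.20 (-0.40 to 0.01, adjusted p = 0.381), while in untrained mice it was 0.19 (-0.02 to 0.40, adjusted p = 0.780). The last was 0.11 and 0.12 without untrained KO library 1 or 2 and 0.30 without library 4. Averaged over training states the KO and WT levels differed by -0.00 (-0.15 to 0.14). The trained KO libraries also had lower fibre marker sums (59653.1 to 65764.5 RPKM) than the untrained KO libraries (66568.6 to 67914.9 RPKM). Endothelial marker sums were 52.8 to 58.8 RPKM in trained KO and 56.7 to 64.5 RPKM in untrained KO. In trained WT the endothelial sums were 57.5 to 74.0 RPKM and the fibre sums 59030.7 to 67610.1 RPKM. Untrained WT had endothelial sums of 55.1 to 68.1 RPKM and fibre sums of 70849.5 to 78057.2 RPKM. Fibre sums were thus lower after training in both genotypes. Markers of fibro-adipogenic progenitors summed to 213 to 336 RPKM in trained KO, against 288 to 375 RPKM in trained WT. The part of cell makeup in the Stat3 level was not tested.

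Stat6, the factor that carries most of the IL-4 and IL-13 response (chr10:127642986-127660987, plus strand), was lower than Stat3 in every library. Levels were 6.14, 6.26, 6.54 and 6.78 RPKM in trained KO muscle, against 8.28, 6.82, 7.62 and 6.51 RPKM in untrained KO muscle. Trained WT muscle had 7.95, 6.55, 6.93 and 6.99 RPKM, against 6.24, 7.22, 5.88 and 7.25 RPKM in untrained WT muscle. In KO, 3 of the 4 untrained libraries lay above all 4 trained ones and library 4 lay among them. The training difference was -0.18 in KO (-0.37 to 0.01, adjusted p = 0.392) and 0.10 in WT (-0.09 to 0.28, adjusted p = 0.728). Their difference was -0.27 (SE 0.13, -0.54 to -0.01), the same sign as for Stat3. The limma p was 0.0452 before and 0.591 after adjustment. The training difference in KO was -0.12 without untrained KO library 1, and that in WT was 0.04 without trained WT library 1 or untrained WT library 3. KO against WT it was -0.14 in trained mice, or -0.08 without trained WT library 1, and 0.13 in untrained mice, or 0.07 without KO library 1. Stat3 stood at 1.74 ± 0.178 times Stat6 within a library (SD, n = 16), from 1.64 ± 0.0593 in trained KO and 1.84 ± 0.302 in untrained KO to 1.70 ± 0.0683 in trained WT and 1.76 ± 0.170 in untrained WT.

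Socs1, which binds JAKs and blocks them (chr16:10783809-10785536, minus strand), was near the floor. Trained KO libraries held 3, 25, 8 and 6 reads and untrained KO libraries 3, 7, 7 and 3 reads. Trained WT libraries held 3, 3, 6 and 6 reads and untrained WT libraries 5, 8, 2 and 0 reads. In 7 of 16 libraries the count was at or under 3 reads, and library 2 of trained KO, at 1.01 RPKM, held more reads than the other libraries of its group together. Log2 differences were 0.53 for training in KO (exact permutation p = 0.514), 0.31 for training in WT (p = 0.629), 0.61 for KO against WT in trained mice (p = 0.314) and 0.40 in untrained mice (p = 0.457). Without that library the differences were 0.07 for training in KO and 0.16 for KO against WT in trained mice. In WT the training difference was -0.08 without untrained WT library 4, and without that library KO against WT in untrained mice was 0.00302. No difference in Socs1 passed, with few reads, 4 libraries a group and 1 library of 25 reads, and which of these limits it was not tested.

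Socs3, a brake on receptors of the IL-6 family (chr11:117966087-117969366, minus strand), was above the floor in every library with 19 to 85 reads. Levels were 0.905, 1.66, 1.01 and 1.16 RPKM in trained KO and 1.73, 0.944, 1.02 and 0.6004 RPKM in untrained KO muscle. They were 1.44, 0.595, 0.622 and 1.21 RPKM in trained WT and 0.647, 0.778, 0.416 and 0.854 RPKM in untrained WT muscle. Untrained WT was the only group with no library at 1 RPKM, and the groups overlapped in each of the 4 pairwise comparisons. Group means were 1.18 ± 0.335 in trained KO, 1.08 ± 0.476 in untrained KO, 0.968 ± 0.426 in trained WT and 0.674 ± 0.192 RPKM in untrained WT (SD, n = 4 each).

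KO against WT averaged over training states, Socs3 differed by 0.44 (SE 0.22, -0.02 to 0.90, adjusted p = 0.430). Socs3 reached 1 RPKM in 3 trained KO, 2 untrained KO, 2 trained WT and 0 untrained WT libraries. It met the limit for testing through the KO libraries, and the WT libraries alone would not have met it. In untrained mice the difference was 0.56 (-0.10 to 1.21, adjusted p = 0.780) and in trained mice 0.32 (-0.33 to 0.97, adjusted p = 0.653). The training difference was 0.18 in KO (-0.48 to 0.83, adjusted p = 0.816) and 0.41 in WT (-0.24 to 1.07, adjusted p = 0.647). The intervals of Socs3 were the widest of the 7 tested members. Without library 1 of untrained KO, the averaged genotype difference was 0.32 and that in untrained mice 0.31. In trained mice it was 0.14 to 0.16 without trained WT library 2 or 3 or trained KO library 2, and 0.52 without trained WT library 1. Training in WT was 0.21 without trained WT library 1 and 0.23 without untrained WT library 3. For training in KO the value was 0.42 without untrained KO library 1, 0.01 without trained KO library 2 and -0.04 without untrained KO library 4.

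**Figure D3:**
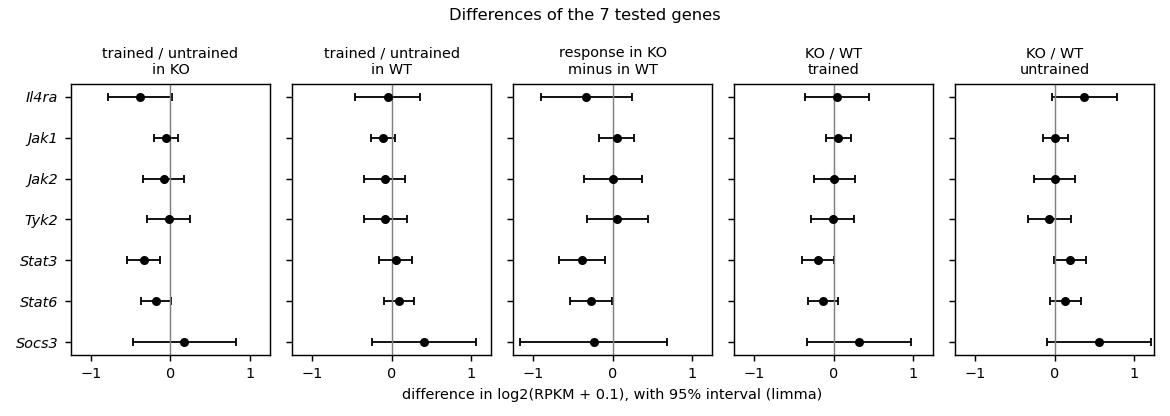
Differences of the 7 tested genes in log2(RPKM + 0.1) with 95% intervals from limma, one panel per comparison. The intervals of Stat3 for training in KO and for the difference of responses, and of Stat6 for the difference of responses, leave out 0, at -0.33, -0.39 and -0.27, and no gene passed after adjustment.

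No member passed an adjusted p of 0.05 in limma in any of the 7 comparisons, nor with voom on the recovered reads. Over all 10171 tested genes, limma called 0.0% for training in KO, 0.187% for training in WT, 0.0% for the difference of the responses, 0.0885% for KO against WT in trained mice and 0.0492% in untrained mice. For training averaged over genotypes it called 0.777%, and for KO against WT averaged over training states 0.0787%. At an unadjusted p under 0.05, training in KO had 1 of 7 members (Stat3), against 13.7% of all tested genes, and the difference of responses had 2 of 7 (Stat3 and Stat6), against 8.4%. The other comparisons had 0 of 7, where all tested genes gave 11.8% for training in WT, 13.9% and 6.2% for the genotypes in trained and in untrained mice, 18.0% for training averaged and 12.2% for the genotypes averaged. With so few genes called in all, the members' count of 0 is near the background. The comparisons of one genotype or state share libraries, so the training difference in KO and the genotype difference in untrained mice both rest on the untrained KO libraries. The median log2 difference of all tested genes was between -0.06 and 0.01 in each comparison.

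Likeness over the 16 libraries was taken as Pearson r of log2(RPKM + 0.1), with the points sharing groups and libraries. Genes with a placeholder name (Gm and a number, or ending in Rik) were passed over. Among the rest, Il4ra was closest to Mt1 (r = 0.929), Lmna (0.903) and Mt2 (0.896). Mt1 and Mt2 encode metallothioneins, which bind zinc and respond to metals and glucocorticoids, and Lmna encodes lamin A. Mt1 averaged 24.7 ± 7.53 in trained KO, 40.03 ± 30.1 in untrained KO, 23.2 ± 6.06 in trained WT and 23.6 ± 4.23 RPKM in untrained WT (SD, n = 4 each), and its highest value, 84.6 RPKM, lay in untrained KO library 1. Without that library r was 0.816 for Mt1, 0.775 for Lmna and 0.738 for Mt2 (n = 15). Stat3 was closest to Cd97 (0.884), an adhesion receptor, Prkcdbp (0.882), a caveolar protein, and Ap2b1 (0.854), a clathrin adaptor. Stat6 was closest to Lyve1 (0.902), a hyaluronan receptor of lymphatic endothelium and some macrophages, Bgn (0.896), a matrix proteoglycan, and Emilin2 (0.893), also a matrix protein. Jak1 was closest to Ino80c (0.865), Slc7a5 (0.810) and Stt3b (0.796), and Socs3 to Dcp1a (0.842), Shank3 (0.801) and Ppp1r15b (0.799). Without untrained KO library 1 and in the same order, r was 0.820, 0.814 and 0.780 for Stat3 and 0.865, 0.911 and 0.857 for Stat6. It was 0.839, 0.763 and 0.769 for Jak1 and 0.819, 0.745 and 0.750 for Socs3 (n = 15). The genes named are the top of a ranking over the tested genes, and no background for r was computed. Among the members, Il4ra and Stat3 had r = 0.75, Il4ra and Socs3 0.68, Il4ra and Stat6 0.67, and Jak1 and Tyk2 0.11.

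**Figure D4:**
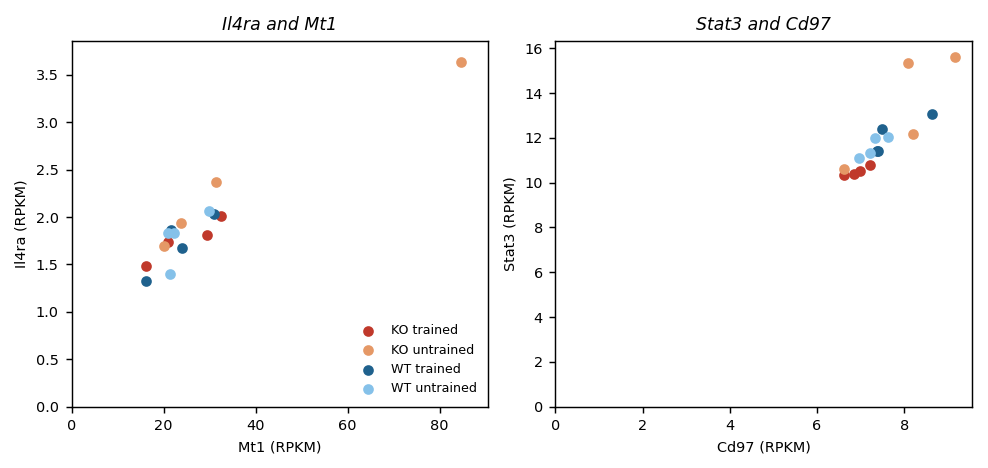
Levels in RPKM of Il4ra against Mt1 (left) and of Stat3 against Cd97 (right), with a point per library coloured by group. Untrained KO library 1, at 84.6 RPKM of Mt1 and 3.63 RPKM of Il4ra, stands apart on the left, and without it r was 0.816.

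The wider pathway was read from 7 lists of related genes, in which no gene passed in any comparison. Of their 69 tested genes, groups of 4 did not overlap for 7 with training in KO, 3 with training in WT, 1 between KO and WT in trained mice and 0 in untrained mice. The shares of all tested genes were those given with Stat3 (9.43%, 6.37%, 8.48% and 3.95%), so these counts stand near or under that background. Among 26 genes listed with the receptor chains of JAK-STAT cytokines, of which Il4 is a ligand, 15 were tested and Il13ra2, the IL-13 decoy receptor, was at 0 in every library. For training in KO the median log2 difference of the 15 was -0.15, against -0.06 for all genes. For KO against WT in untrained mice the median was 0.09, against 0.00 for all genes. In trained mice it was -0.08, against -0.05 for all genes. Averaged over training states it was -0.01, against -0.02 for all genes. The 15 genes were read from the same libraries, so their differences are not independent, and the list was not tested as a set. Crlf2, the TSLP receptor, had 1.18 ± 0.288 RPKM in trained KO and 1.98 ± 0.268 RPKM in untrained KO muscle (SD, n = 4 each), a log2 difference of -0.71 with adjusted p = 0.257 and groups that did not overlap. Tested genes without overlap between these groups made up 9.43% of all. Il6ra, the IL-6 binding chain, averaged 1.51 ± 0.355 in trained KO, 1.67 ± 0.266 in untrained KO, 1.18 ± 0.177 in trained WT and 1.304 ± 0.0964 RPKM in untrained WT, a genotype difference of 0.32 averaged over training states (adjusted p = 0.316).

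Of the 6 other JAKs and STATs, 5 were tested. Stat5a, a factor of growth hormone and prolactin receptors, averaged 3.31 ± 0.342 RPKM in trained KO and 4.11 ± 0.316 RPKM in trained WT (SD, n = 4 each). Its groups did not overlap, as in 8.48% of tested genes (5.86% with KO lower), at a log2 difference of -0.30 (adjusted p = 0.325). Stat5a lies next to Stat3 on the opposite strand and shares exon bases with it in GENCODE M21. Their regions in the deposited table do not overlap. Stat5b averaged 34.5 ± 7.73 RPKM in trained WT and 43.8 ± 5.86 RPKM in untrained WT, a difference of -0.36 (adjusted p = 0.258).

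Of 15 other brakes, 14 were tested. Ptpn1, the phosphatase PTP1B that acts on JAK2 and TYK2, had the smallest p of the lists, at a training difference of -0.29 averaged over genotypes (adjusted p = 0.0621). It averaged 5.46 ± 0.512 RPKM in trained and 6.52 ± 0.513 RPKM in untrained KO muscle, and 5.18 ± 0.391 RPKM in trained and 6.60 ± 0.977 RPKM in untrained WT muscle (SD, n = 4 each). Among the 6 adaptors of IL-4Rα, all tested, Irs1 averaged 4.15 ± 0.241 RPKM in trained WT and 3.02 ± 0.582 RPKM in untrained WT, a difference of 0.46 (adjusted p = 0.354).

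STAT6 targets known from mouse macrophages and other cells made up 17 genes, of which 9 were tested. Their median difference was -0.15 for training in KO and -0.04 for training in WT, against -0.06 and 0.01 for all genes. For the difference of the responses it was -0.33, against -0.05 for all genes. For KO against WT it was -0.07 in trained mice (-0.05 for all genes) and 0.19 in untrained mice (0.00 for all genes). Pparg, a regulator of fat cells and of macrophages, averaged 2.76 ± 0.794 RPKM in untrained KO and 1.77 ± 0.255 RPKM in untrained WT (SD, n = 4 each), a difference of 0.58 (adjusted p = 0.780). Adipocyte marker sums were 39.2 to 87.3 RPKM in untrained KO and 22.0 to 53.7 RPKM in untrained WT, and their part was not tested. Tgm2, a transglutaminase, averaged 24.3 ± 2.89 RPKM in trained KO and 31.9996 ± 6.44 RPKM in untrained KO, a difference of -0.38 (adjusted p = 0.257).

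STAT3 targets made up 25 genes, of which 17 were tested, Il4ra among them. Their median difference was -0.17 for training in KO, against -0.06 for all genes, and -0.05 for training in WT, against 0.01. The value for training in WT is that of Il4ra itself, the middle gene of the 17. For the difference of the responses the median of the list was -0.07, against -0.05 for all genes. For KO against WT it was -0.0016 in trained mice (-0.05 for all genes) and 0.10 in untrained mice (0.00 for all genes). Myc, a growth regulator, averaged 2.47 ± 0.788 in trained KO, 2.85 ± 0.876 in untrained KO, 1.75 ± 0.348 in trained WT and 2.04 ± 0.484 RPKM in untrained WT, a genotype difference of 0.45 averaged over training states (adjusted p = 0.325). Cebpd differed most in its training responses, by 1.37 for KO minus WT (adjusted p = 0.529). Of 24 ligands of JAK-STAT receptors, 5 were tested and 7 were at 0 in every library. Il15, a cytokine made by muscle, averaged 4.37 ± 1.04 RPKM in trained WT and 2.66 ± 0.700 RPKM in untrained WT (SD, n = 4 each), a difference of 0.70 (adjusted p = 0.214). Cntf, a ligand of the IL-6 family, averaged 1.60 ± 0.794 RPKM in untrained KO and 0.487 ± 0.395 RPKM in untrained WT, a difference of 1.83 (adjusted p = 0.780).

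Exons of 5 members overlap another gene on the opposite strand in GENCODE M21, which are Il4ra with Gm44876, Jak1 with Raver2, Tyk2 with 1700084C06Rik, Stat3 with Stat5a and Stat6 with Nab2. The library kit keeps strand, but whether strand was used in counting is not given in the sources used here, so reads in those stretches may belong to either gene.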

How the data were processed

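RNA from the gastrocnemius of 16 mice was made into stranded mRNA libraries, per the labels' protocols. The deposited values are RPKM that the authors computed after read trimming, per the file headers. Per the submitters' processing notes, reads were placed on mm10. Nothing in the sources used here names the aligner, counter, annotation, strand setting or filters. Mouse identifiers in the labels tied each column to its sample.

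The members and the gene lists were chosen with earlier results of these data known. Tests ran on log2(RPKM + 0.1) in limma 3.58.1 (statmod 1.5.0, R 4.3.3) with trended, robust moderation of variances, and 1 mean per group over all 16 libraries. Genes below 1 RPKM in more than 12 libraries were left out. The two-sided p-values were adjusted by Benjamini-Hochberg over the 10171 genes within each of 7 comparisons. The log2(RPKM + 0.1) scale understates changes at low levels. Members under the limit were compared by exact permutation of 4 against 4 libraries. The fit was also run on simulated data, for training in WT only and with the same spread beyond counting error for every gene. That run does not show how the fit performs for genes as variable as Il4ra or Socs3.

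Because low RPKM values step by whole reads, gene lengths and library totals could be solved. Reads came out whole within 0.01 for 100% of values above 0, over 17402 genes, and another 6038 genes were at 0 everywhere. The recovered reads gave depth, the floor of 3 reads and voom, an alternative test. Floors cover counting error only. The rule for naming genes took all members, up to 4 of each list with the smallest p in each comparison, and for 5 members the 3 genes with the highest Pearson r. That ranking by r passed over genes with a placeholder name (Gm and a number, or ending in Rik). From the lists only some of these are printed, picked with their values in view. Deviations of same-numbered libraries from their group means had correlations from -0.182 to 0.442. Between trained and untrained KO they were 0.149, 0.191, 0.442 and 0.0523, all above 0. In the other pairs of groups they ran from -0.182 to 0.109. The main fit did not take numbers as pairs, and a block on the number was among the alternatives. Whether same-numbered KO mice were matched was not tested. Alternatives were quantile normalization, no filter, pseudocounts of 1 and 0.01 RPKM, voom, the replicate block, only the groups compared and leaving out each library. Recovery and plots used Python 3.11.15 (NumPy 2.4.6, pandas 2.3.3) and matplotlib 3.10.9.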

Additional observations from a re-analysis of the deposited data

Results flagged for a closer look

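Of 38 groups of 4 checked over the members, 3 held a library far from the other 3, and chance gives about 1 in 20. Il13ra1 was at 1.101 RPKM in library 1 of untrained KO, where the others had 0.697 to 0.765 RPKM. Jak1 was at 36.1 RPKM in library 2 of trained KO, where the others had 32.5 to 32.8 RPKM. Tyk2 was at 2.12 RPKM in library 4 of untrained KO, where the others had 2.40 to 2.44 RPKM. Over all tested genes, the median log2 deviation of that library from the mean of the others of its group was -0.13. For trained WT library 1 it was 0.15, and no other library deviated as far. The part of these shifts in the member differences was not tested.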

How the results depend on the processing

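No tested member passed in any comparison under any of 16 settings that left out 1 library or 7 others. For Il13ra1 and Socs1 only the 8 libraries of the 2 groups compared were left out in turn, and neither passed. Il13, at the floor, was given no fold and so has no alternative. The smallest adjusted p of a tested member was 0.0921 and the smallest exact p of an untested one 0.0571. Of 1202 member values under alternatives, 1134 kept their direction and 68 changed sign, 61 of them on leaving out a library, across 22 of 57 member results. Reads were at or under 3 in 16 of 16 libraries for Il13 and in 7 of 16 for Socs1.

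Quantile normalization gave, on the log2 scale, 0.0069 for Jak1 and 0.027 for Tyk2 (training in KO), 0.032 for Tyk2 (KO against WT, trained), 9.8e-06 for Jak2 (KO against WT, untrained), and 0.027 for Stat3 and 0.014 for Stat6 (KO against WT averaged). With voom, Jak2 in KO against WT averaged was -0.00033. The cause was not tested.

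Leaving out 1 library, results that changed sign had these ranges. For Il13ra1 they were -0.11 to 0.18 for training in KO, -0.125 to 0.17 for KO against WT trained and -0.0014 to 0.25 untrained. Il4ra ran from -0.16 to 0.065 for training in WT and from -0.075 to 0.12 for KO against WT trained. Jak1 ran from -0.044 to 0.061 for KO against WT untrained and from -0.0013 to 0.10 for the difference of responses. For Jak2 the ranges were -0.19 to 0.016 for training in WT, -0.097 to 0.11 for the difference of responses, -0.063 to 0.11 for KO against WT trained, -0.092 to 0.10 untrained and -0.044 to 0.054 averaged. Tyk2 ran from -0.13 to 0.0699 for training in KO, -0.053 to 0.15 for the difference of responses, -0.125 to 0.079 for KO against WT trained and -0.098 to 0.0036 averaged. For KO against WT averaged, Stat3 ran from -0.042 to 0.0503 and Stat6 from -0.033 to 0.025. Socs1 ran from -0.084 to 0.63 for training in WT. Socs3 ran from -0.044 to 0.42 for training in KO and from -0.46 to 0.0057 for the difference of responses.

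Counts of called genes moved more. For training in KO (0 genes) no filter gave 1, and leaving out 1 library gave 0 to 106. The 106 came without trained WT library 1, which is not in this comparison but enters the shared estimate of the spread. Leaving out a KO library gave 0 or 1. For training in WT (19 genes, 13 higher) quantile normalization gave 156, no filter 3, a pseudocount of 1 RPKM 39 (23 higher), voom 64 (36 higher), only the groups compared 35 and the replicate block 16 (8 higher). Leaving out 1 library there gave 0 to 272. The highest count came without trained WT library 1, and 0 came without trained WT library 3 or 4 or untrained WT library 3. For the difference of responses (0 genes) quantile normalization gave 1, no filter 1 and leaving out 1 library 0 to 2. For KO against WT in trained mice (9 genes) the replicate block gave 5, only the groups compared 3 and leaving out 1 library 2 to 9. In untrained mice (5 genes) only the groups compared gave 3 and leaving out 1 library 3 to 5. For training averaged (79 genes, 33 higher) quantile normalization gave 253 (152 higher), no filter 27, voom 122, the replicate block 31 (9 higher) and leaving out 1 library 18 to 1044, the last without trained WT library 1. For KO against WT averaged (8 genes) leaving out 1 library gave 8 to 9.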
